A study of Mus musculus with 2 samples.

Results

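The enzymes, carriers and electron-transfer proteins of fatty acid oxidation were followed in adrenal gland tissue by long-read RNA sequencing, a method whose reads are long enough to cover an entire cDNA. The group holds 34 genes, taken by name with no threshold on their values, out of 18111 genes with at least 1 read. Every one of the 34 was found in the tables, with its reads summed over all transcript models of the gene. The tissue came from 14-day-old female B6CASTF1/J mice, the F1 cross of C57BL/6 and CAST, with no treatment recorded, and forms 1 group with 2 libraries labelled biological replicate 2 and biological replicate 1. The tissue name of replicate 2 refers to a female numbered 04 and that of replicate 1 to 3 females, while each library description mentions 3 females, so it cannot be told whether replicate 2 is a pool or 1 animal. Both tissue samples carry the same donor record, and with 1 library each the spread between animals cannot be told apart from that between preparations. Because there is no second condition, the comparisons are between these 2 libraries and among the genes.

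Mitochondrial beta-oxidation shortens an activated fatty acid by repeated rounds of oxidation, hydration, a further oxidation and cleavage, and each round releases acetyl-CoA and passes electrons to the respiratory chain. Long chains are first joined to coenzyme A, carried across the inner membrane as carnitine esters by the carnitine palmitoyltransferases, and then taken through the cycle by enzymes graded by chain length. In the adrenal cortex fatty acids and cholesterol are stored side by side as esters in lipid droplets, and the brown fat that surrounds the gland in young mice burns fatty acids for heat.

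Replicate 2 held 946553 reads on annotated genes and replicate 1 held 1065570, so that 3 reads, the limit set by a count of 0, corresponded to 3.17 CPM and 2.82 CPM. CPM are reads scaled to a library of 1000000 gene reads. The tissue label was checked against marker genes: all 11 genes listed for the adrenal cortex and all 8 for chromaffin cells had reads in both libraries. The libraries differed in other cell types. Of all gene reads, the 16 hepatocyte genes made up 9.12% in replicate 2 but 0.0847% in replicate 1, with 16 of 16 higher in replicate 2 and 0 and 1 of them without reads. The 10 skeletal muscle genes took 0.246% in replicate 2 and 0.00779% in replicate 1, with 7 of 7 tested higher. The 11 cortex genes took 2.58% and 5.96% and were lower in replicate 2 in 11 of 11 cases, and the chromaffin genes took 0.450% and 1.17%, with 7 of 8 lower. The 10 adipocyte genes took 0.983% and 0.877%, with 2 of 9 tested higher, and all 7 genes of the kidney proximal tubule were at 0 in both. Hepatocyte, muscle and fat cells all use fatty acid oxidation, and the part of these cell types in the results that follow was not tested.

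The 34 genes together took 19727 reads in replicate 2 and 17171 in replicate 1. They made up 2.08% of the gene reads of replicate 2 (exact 95% interval 2.06 to 2.11%) and 1.61% in replicate 1 (1.59 to 1.64%), with a mean of 1.85 ± 0.334% (SD, n = 2). In whole tissue, fewer cells of a type and less RNA per cell cannot be told apart. Levels spanned more than 2 orders of magnitude, with a range of 7.40 to 2247 CPM in replicate 2 and 4.69 to 1655 CPM in replicate 1. The median gene stood at 311 CPM in replicate 2 and 239 CPM in replicate 1. Since 1 read stands for 1 cDNA, CPM was not divided by length, and how recovery depends on length was not tested. Hadhb, the beta subunit of the mitochondrial trifunctional protein, was the highest of the 34 in both libraries and the 29th and 42nd gene of the whole transcriptome in replicate 2 and replicate 1. The 10 highest members carried 72.8% of the group's reads in replicate 2 and 73.3% in replicate 1, and 24 and 21 members were among the 1000 highest genes.

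**Figure D1:**
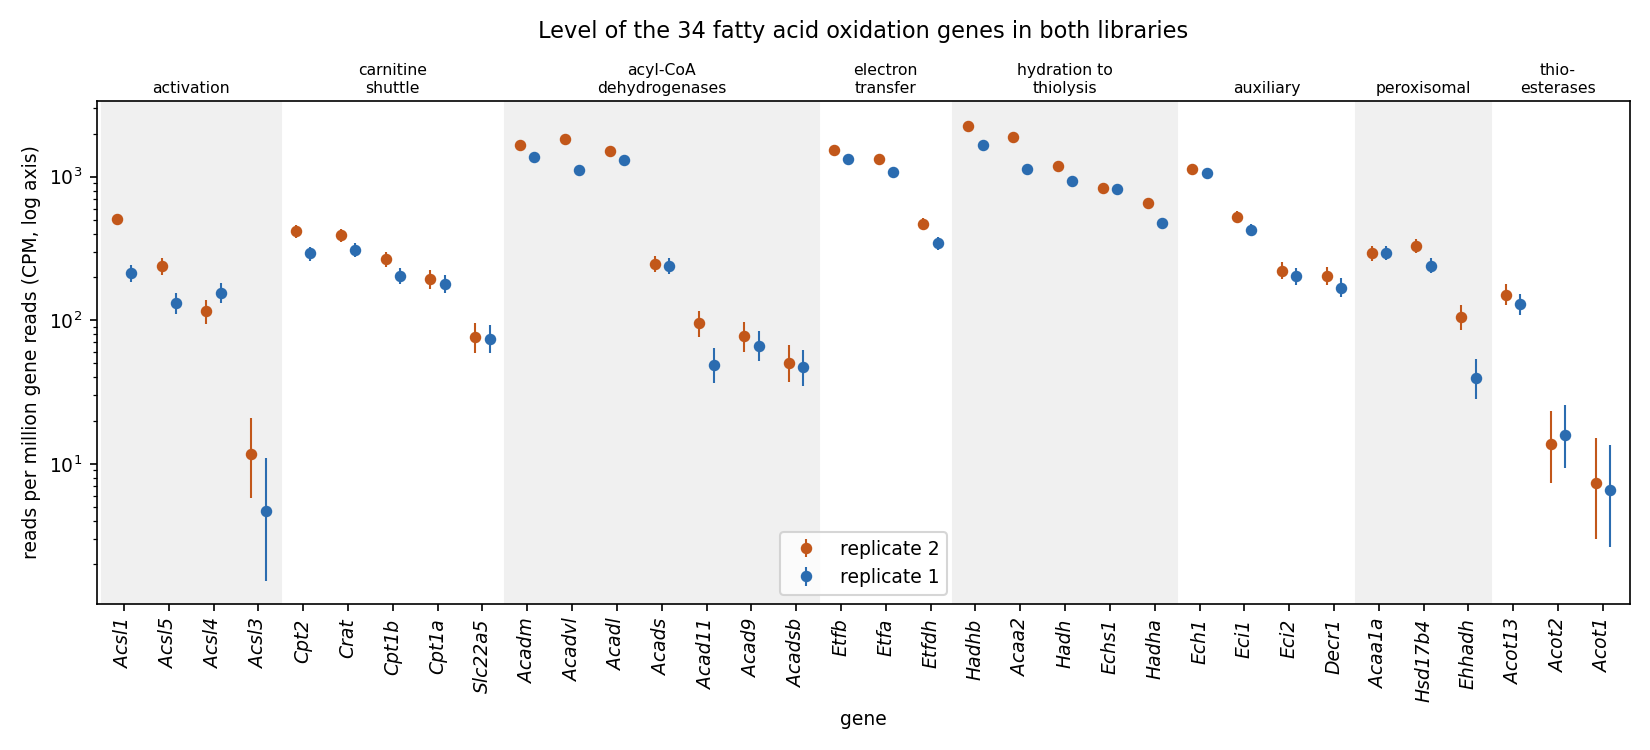
CPM (log axis) of the 34 genes, grouped by role and ordered by mean level within a role, with replicate 2 as the left and replicate 1 as the right point of each pair; bars are exact 95% counting intervals. Hadhb stands highest at 2247 CPM in replicate 2 and 1655 CPM in replicate 1, and Acot1 and Acsl3 lowest.

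Of the 32 members with at least 20 summed reads, 19 were higher in replicate 2 and 0 were lower by a two-sided exact conditional binomial test with Benjamini-Hochberg adjustment at 0.05 over all 9211 genes tested. Over all genes 8.58% were higher in replicate 2 and 17.9% lower by the same test. This test calls smaller differences at higher read counts, and 24 and 21 members were among the 1000 highest genes of replicate 2 and replicate 1. Shares among genes of like read counts were not compared. At an unadjusted exact p under 0.05 there were 19 members higher and 1 lower, Acsl4, against 10.4% of all genes higher and 25.7% lower. The median log2 ratio of replicate 2 over replicate 1 was 0.29 among the members, against −0.28 over all genes tested, and 31 of the 32 members lay above that overall median. The ratios ran from −0.43 for Acsl4 to 1.40 for Ehhadh, and 2 of the 32 members, Acsl1 and Ehhadh, differed by more than 2-fold, against 14.6% of all genes. Scaled by TMM in place of the total, 24 members were higher and 0 lower, with 11.9% of all genes higher and 6.98% lower. DESeq2 size factors gave the same member counts, with 11.7% and 7.12% of all genes. The members that gained a call under both were Ech1, Eci2, Decr1, Echs1 and Acot13. Scaled to the ERCC spike-ins, 29 members were higher and 0 lower, with 22.5% of all genes higher and 1.85% lower, and Cpt1a, Slc22a5, Acads, Acad9 and Acaa1a were called as well. The members' median lay 0.57 above that of all genes under each scaling, because a scaling shifts every log2 ratio by the same amount. These alternatives shifted all ratios upward, so they could hardly turn a member lower or remove a higher call. The test covers counting error of 2 libraries and not the spread between animals. With a coefficient of variation of 0.2 assumed between animals, edgeR's exact test called 0 members in either direction after adjustment, against 4.84% of all genes higher and 0.727% lower. At an unadjusted p under 0.05 of that exact test 2 members were higher and 0 lower, against 6.44% and 4.8% of all genes.

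**Figure D2:**
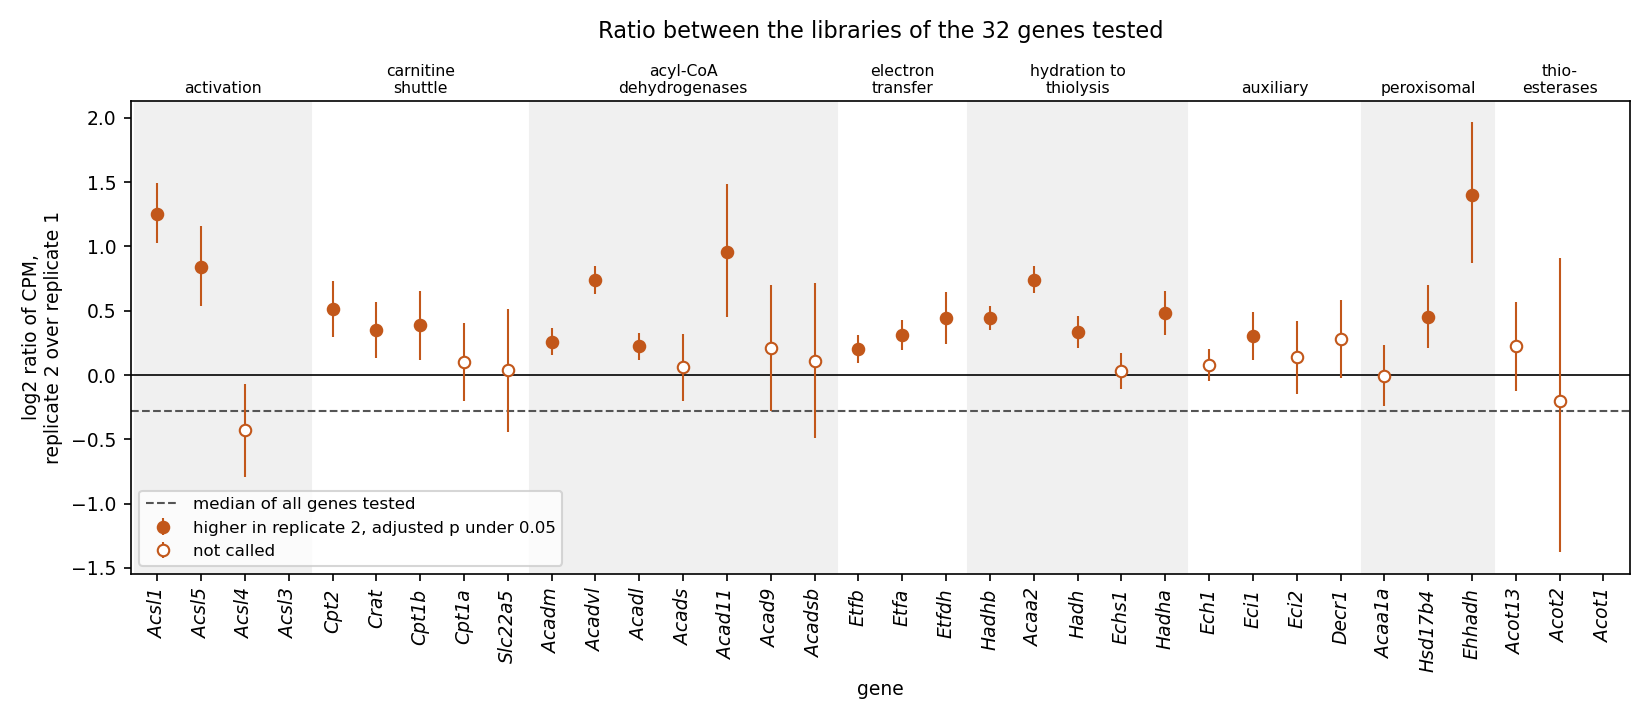
Log2 ratio of CPM in replicate 2 over replicate 1 for the 32 genes tested, grouped by role; bars are exact 95% counting intervals, filled points are genes called higher in replicate 2 and the dashed line is the median of all genes tested, −0.28. Among the filled points are Acsl1 at 1.25 and Ehhadh at 1.40, and Acsl4 lies lowest at −0.43; Acsl3 and Acot1 had too few reads.

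Of the 4 long-chain acyl-CoA synthetases, which activate fatty acids, Acsl1 and Acsl5 were higher in replicate 2, Acsl4 was not called and Acsl3 was not tested. Acsl1, the main synthetase of liver, muscle and fat, had 479 reads (506 CPM) in replicate 2 and 226 reads (212 CPM) in replicate 1, a log2 ratio of 1.25 (SE 0.12, adjusted p = 2.06e-27, exact test). Acsl5, a synthetase of intestine and liver, had 225 reads (238 CPM) in replicate 2 and 141 reads (132 CPM) in replicate 1, a log2 ratio of 0.84 (SE 0.15, adjusted p = 4.22e-07, exact test). Acsl4, which prefers arachidonic acid and is the abundant synthetase of steroid-making cells, had 109 reads (115 CPM) in replicate 2 and 165 reads (155 CPM) in replicate 1. Its log2 ratio of −0.43 (SE 0.18) did not pass the exact test (adjusted p = 0.0638). It was 0.16 under scaling to the ERCC spike-ins, so its direction rests on the scaling. Acsl3, found on the endoplasmic reticulum and on lipid droplets, had only 11 reads in replicate 2 and 5 in replicate 1 and was not tested. Acsl1 was the highest of these 4 synthetases in both libraries. Acsbg1, from the wider list for uptake, binding and activation and not a member, exceeded Acsl1 in replicate 1 (291 against 226 reads). In replicate 2 Acsbg1 lay below Acsl1 (207 against 479 reads). Of the summed reads of Acsl5 and Acsl4, Acsl5 held 67.4% in replicate 2 and 46.1% in replicate 1, with exact 95% intervals that do not overlap.

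The carnitine shuttle showed a moderate difference in 3 of its 5 members, all higher in replicate 2, against 8.58% of all genes. Cpt2, which rebuilds acyl-CoA on the matrix side of the inner membrane, had 394 reads (416 CPM) in replicate 2 and 311 reads (292 CPM) in replicate 1, a log2 ratio of 0.51 (SE 0.11, adjusted p = 2.75e-05, exact test). Crat, which exchanges short acyl groups with carnitine, had 371 reads (392 CPM) in replicate 2 and 328 reads (308 CPM) in replicate 1 (log2 ratio 0.35, SE 0.11, adjusted p = 0.00803, exact test). Cpt1b, the muscle and brown fat form of the outer membrane transferase that controls entry, had 252 reads (266 CPM) in replicate 2 and 217 reads (204 CPM) in replicate 1 (log2 ratio 0.39, SE 0.13, adjusted p = 0.0193, exact test). Cpt1a, the form of liver and most other tissues, had 182 reads (192 CPM) and 191 reads (179 CPM), and its log2 ratio of 0.10 did not pass. The carnitine importer Slc22a5 had 72 reads (76.1 CPM) and 79 reads (74.1 CPM), which likewise did not pass. Of the summed reads of both outer membrane forms, the muscle form held 58.1% in replicate 2 (exact 95% interval 53.3 to 62.8%) and 53.2% in replicate 1, where the interval of 48.2 to 58.1% includes equal shares. Exons of Cpt1b share up to 575 bases with Gm44502 on the same strand, a locus that was given 44 reads in replicate 2 and 1 read in replicate 1, so how its reads were divided is uncertain.

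Among the acyl-CoA dehydrogenases, which carry out the first oxidation, the 3 enzymes Acadvl, Acadm and Acadl, for very long, medium and long chains, had several times the reads of the other 4. Acadvl, the very long-chain enzyme of the inner membrane, had 1745 reads (1844 CPM) in replicate 2 and 1178 reads (1106 CPM) in replicate 1, a log2 ratio of 0.74 (SE 0.05, adjusted p = 4.85e-41, exact test). Acadm, the medium-chain enzyme, had 1563 reads (1651 CPM) in replicate 2 and 1469 reads (1379 CPM) in replicate 1 (log2 ratio 0.26, SE 0.05, adjusted p = 8.03e-06, exact test). Acadl, the long-chain enzyme, had 1440 reads (1521 CPM) in replicate 2 and 1390 reads (1304 CPM) in replicate 1 (log2 ratio 0.22, SE 0.05, adjusted p = 0.000353, exact test). The order of these 3 differed between the libraries, with Acadvl the highest in replicate 2 and the lowest in replicate 1. Acads, the short-chain enzyme, stood lower at 248 CPM in replicate 2 and 238 CPM in replicate 1 and did not pass the test. Acad11, a long-chain enzyme, had 90 reads (95.1 CPM) in replicate 2 and 52 reads (48.8 CPM) in replicate 1, a log2 ratio of 0.96 (SE 0.25, adjusted p = 0.000751, exact test). Acad9, better known for the assembly of respiratory complex I, stood at 77.1 CPM in replicate 2 against 66.6 CPM in replicate 1, and Acadsb, the short branched-chain enzyme of isoleucine breakdown, had 50.7 and 46.9 CPM. Neither passed the test.

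All 3 proteins that hand the electrons of this first step to the respiratory chain were higher in replicate 2, against 8.58% of all genes. Etfb, the beta subunit of the electron transfer flavoprotein, had 1449 reads (1531 CPM) in replicate 2 and 1418 reads (1331 CPM) in replicate 1 (log2 ratio 0.20, SE 0.05, adjusted p = 0.00129, exact test). Its partner subunit Etfa had 1265 reads (1336 CPM) in replicate 2 and 1149 reads (1078 CPM) in replicate 1 (log2 ratio 0.31, SE 0.06, adjusted p = 1.70e-06, exact test). Etfdh, the membrane enzyme that takes the electrons to ubiquinone, had 443 reads (468 CPM) in replicate 2 and 367 reads (344 CPM) in replicate 1 (log2 ratio 0.44, SE 0.10, adjusted p = 0.000130, exact test). In each library Etfb lay within the range of the 3 leading dehydrogenases, Etfa below it and the membrane enzyme well under both.

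Hydration, the second oxidation and thiolysis held 32.8% of the group's reads in replicate 2 and 31.2% in replicate 1, more than any other role. Hadhb had 2127 reads (2247 CPM) in replicate 2 and 1763 reads (1655 CPM) in replicate 1, a log2 ratio of 0.44 (SE 0.05, adjusted p = 5.09e-20, exact test). Hadha, which supplies the hydratase and dehydrogenase of the same complex, had 625 reads (660.3 CPM) in replicate 2 and 504 reads (473 CPM) in replicate 1, a log2 ratio of 0.48 (SE 0.09, adjusted p = 3.10e-07, exact test). Of the reads of both partners, Hadhb held 77.3% in replicate 2 and 77.8% in replicate 1. Their leading transcripts differ in length, 2048 bases for Hadhb and 4017 bases for Hadha. Acaa2, the thiolase for medium chains, had 1804 reads (1906 CPM) in replicate 2 and 1215 reads (1140 CPM) in replicate 1, a log2 ratio of 0.74 (SE 0.05, adjusted p = 1.09e-42, exact test). Hadh, the dehydrogenase for medium and short chains, had 1118 reads (1181 CPM) in replicate 2 and 996 reads (935 CPM) in replicate 1 (log2 ratio 0.34, SE 0.06, adjusted p = 1.01e-06, exact test). Echs1, the short-chain hydratase, had 790 reads (835 CPM) and 872 reads (818 CPM), and its log2 ratio of 0.03 did not pass.

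Of the 4 auxiliary enzymes that handle double bonds, 1 was higher in replicate 2 with scaling by total reads, and all 4 were under TMM, DESeq2 and ERCC scaling. Eci1, an isomerase that moves a double bond into place, had 497 reads (525 CPM) in replicate 2 and 454 reads (426 CPM) in replicate 1 (log2 ratio 0.30, SE 0.09, adjusted p = 0.00727, exact test). Ech1, the dienoyl-CoA isomerase, was the most abundant of the 4 at 1125 CPM in replicate 2 and 1067 CPM in replicate 1. Eci2, a second isomerase found in mitochondria and peroxisomes, had 222 and 202 CPM, and Decr1, the dienoyl-CoA reductase, had 205 and 169 CPM. The log2 ratios of Ech1, Eci2 and Decr1 were 0.08, 0.14 and 0.28 with scaling by total reads, and none of them passed the test there.

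Of the 3 peroxisomal enzymes, Ehhadh, a bifunctional enzyme best known from liver and kidney, had the largest ratio of all 32 members tested. It had 99 reads (105 CPM) in replicate 2 and 42 reads (39.4 CPM) in replicate 1, a log2 ratio of 1.40 (SE 0.26, adjusted p = 5.06e-07, exact test). Hsd17b4, the bifunctional enzyme for branched and very long chains, had 311 reads (329 CPM) in replicate 2 and 256 reads (240.2 CPM) in replicate 1 (log2 ratio 0.45, SE 0.12, adjusted p = 0.00147, exact test). Acaa1a, a peroxisomal thiolase, had 278 reads (294 CPM) and 314 reads (295 CPM), a log2 ratio of −0.00. Its closely related copy Acaa1b had 600 reads in replicate 2 and 50 in replicate 1, and a division of reads between the copies is uncertain. The 16 hepatocyte genes had a median log2 ratio of 6.94, and the part of hepatocytes in the ratios of these peroxisomal genes was not tested.

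The thioesterases, which release free fatty acids from acyl-CoA, were low, and none was called with scaling by total reads. Acot13 had 143 reads (151 CPM) in replicate 2 and 138 reads (129.5 CPM) in replicate 1, a log2 ratio of 0.22, and was called higher under TMM, DESeq2 and ERCC scaling. The mitochondrial Acot2 had 13 reads in replicate 2, against 17 in replicate 1, and the cytosolic Acot1 had 7 in each and was not tested. Acot1 and Acot2 are close copies lying on the same chromosome, so the assignment of their few reads is uncertain.

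Each read also shows which exons were joined, and most members were read as 1 main transcript. The leading transcript, by its chain of introns, took a median of 95.9% of a member's classified spliced reads in replicate 2 and 94.8% in replicate 1, against 88.6% and 87.5% over all 4972 genes tested. It took at least 90% in both libraries in 21 of 31 members, against 38.4% of the genes tested. Genes with 1 chain only, whose reads all lie on the leading chain, were not tested and are outside these background values. In each of the 34 members the leading transcript was an annotated one. Those transcripts were 721 to 6081 bases long, with a median of 2322 bases. Fisher's exact test of the leading share between the libraries, adjusted over all genes tested, called 1 of 31 members, Acsl5, against 0.603% of those genes. The same test on the donor of the first intron called 1 of 28 members, again Acsl5. It called 0.8% of the 3874 genes tested, all with more than 1 donor. More than 1 transcript was in use, each with at least 10 summed reads and 10% of the reads in either library, in 5 members: Hadhb, Acsl5, Crat, Eci2 and Acsl4.

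**Figure D3:**
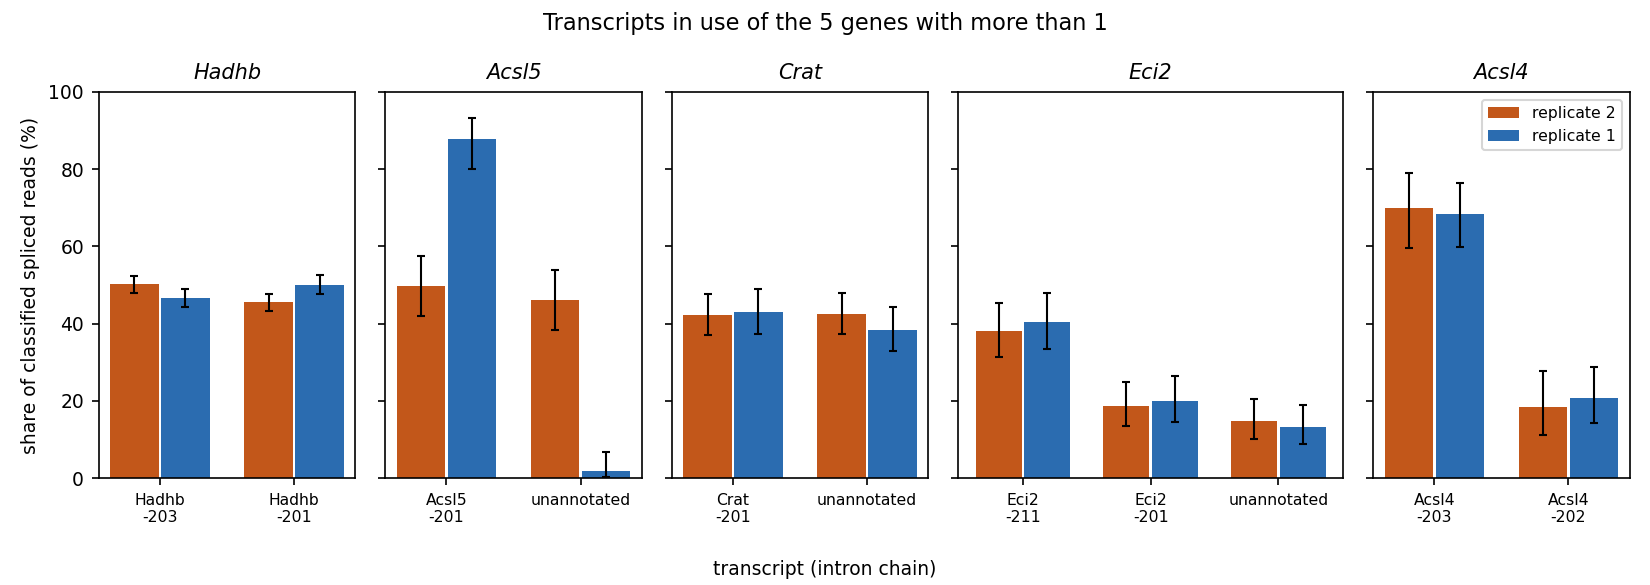
Share of classified spliced reads (%) on each transcript in use of Hadhb, Acsl5, Crat, Eci2 and Acsl4, with replicate 2 as the left and replicate 1 as the right bar of each pair; error bars are exact 95% intervals for counting error. The leading transcript of Acsl5 takes 49.7% in replicate 2 and 87.7% in replicate 1, and outside Acsl5 the intervals of every pair overlap.

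Acsl5 (mm10 chr19:55251938-55297720, plus strand) was read from 2 starts whose balance differed between the libraries. Acsl5-201 took 84 of 169 classified reads in replicate 2 (49.7%, exact 95% interval 41.9 to 57.5%) and 93 of 106 in replicate 1 (87.7%, 79.9 to 93.3%), with an adjusted p of 2.03e-08 by Fisher's exact test. An unannotated chain that joins an upstream first exon to the remaining introns of Acsl5-201 took 78 reads (46.2%) in replicate 2 and 2 reads (1.89%) in replicate 1. That first exon is annotated in the short transcripts Acsl5-205 and Acsl5-202 and ends 2090 bases before the first exon of Acsl5-201 does. Reads whose first exon was that of Acsl5-201 stood at 93.0 CPM in replicate 2, against 95.7 CPM in replicate 1, a ratio of 0.971 with an exact 95% interval of 0.722 to 1.30. Reads with the upstream first exon stood at 85.6 CPM in replicate 2, against 1.88 CPM in replicate 1, from 81 and 2 reads, a ratio of 45.6 with an exact interval of 12.2 to 383. Among classified reads, the difference in Acsl5 between the libraries thus lay on the upstream first exon. Counting only models that match an annotated transcript, which leaves out the unannotated chain, turned the log2 ratio of the gene to −0.02. The annotated start codon (chr19:55268673-55268675) lies in the second exon, which both forms share. The junctions below, from the GENCODE M21 transcripts on GRCm38, show in capitals the last 15 bases of each first exon and in lower case the first 15 bases of the shared second exon.
Acsl5-205, upstream first exon: GACCATTCTCAAGAGgtctgaatttcctgt
Acsl5-201: GCGGCCCTTCCCAGGgtctgaatttcctgt

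Hadhb (chr5:30155248-30184593, plus strand) was split almost evenly between a pair of first-exon ends. The donor of Hadhb-203 took 1043 of 2046 reads in replicate 2 (51.0%, exact 95% interval 48.8 to 53.2%) and 802 of 1694 in replicate 1 (47.3%, 44.9 to 49.8%). The donor of Hadhb-201, 43 bases upstream, took 941 reads (46.0%, exact 95% interval 43.8 to 48.2%) in replicate 2 and 863 reads (50.9%, 48.5 to 53.4%) in replicate 1, and these intervals do not overlap. The donor of Hadhb-202, 4 bases further down, took 37 reads (1.81%) and 18 reads (1.06%). The leading share differed by 3.63 percentage points, with p = 0.0278 by Fisher's exact test before and 0.89 after adjustment over all genes, and was not called. All 3 transcripts have the same annotated coding sequence of 475 codons, which starts in the second exon. Both main donors are shown in 30-base windows cut from the first exon of Hadhb-202, with the first 2 bases of the intron in capitals.
Hadhb-201 donor, chr5:30155325-30155354: ttcgcggactctaagGTgcggcagcgcgct
Hadhb-203 donor, chr5:30155357-30155386: tcggttttcttctgatttccccacagGCag
The intron of Hadhb-201 opens with GT, the usual donor, and that of Hadhb-203 with GC, a rarer donor that is also known to be spliced.

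Hadhb lies head to head with Hadha (chr5:30118304-30155162, minus strand), and the annotated starts of Hadhb-201 and Hadha-205 are 86 bases apart. By annotation both subunits of the trifunctional protein are thus transcribed outward from one short stretch. Another annotated transcript, Hadha-201, starts further inside Hadha, at chr5:30154976, and the starts of the reads were not examined. Hadhb had more reads than Hadha in both libraries. The RefSeq promoter window of Hadhb (GRCm38.p6, 250 bases before to 50 after its start, plus strand) is printed in full, and the capitals mark the 228 bases that also belong to the promoter window of Hadha on the other strand.
Hadhb promoter window, chr5:30155003-30155302: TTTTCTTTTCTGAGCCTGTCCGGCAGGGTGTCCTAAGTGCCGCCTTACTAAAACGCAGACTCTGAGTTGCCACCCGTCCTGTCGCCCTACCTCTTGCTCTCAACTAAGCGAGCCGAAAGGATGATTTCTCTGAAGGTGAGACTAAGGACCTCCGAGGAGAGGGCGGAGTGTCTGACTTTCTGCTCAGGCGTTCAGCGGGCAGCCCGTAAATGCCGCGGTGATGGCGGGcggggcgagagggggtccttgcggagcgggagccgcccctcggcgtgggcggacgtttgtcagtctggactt

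**Figure D4:**
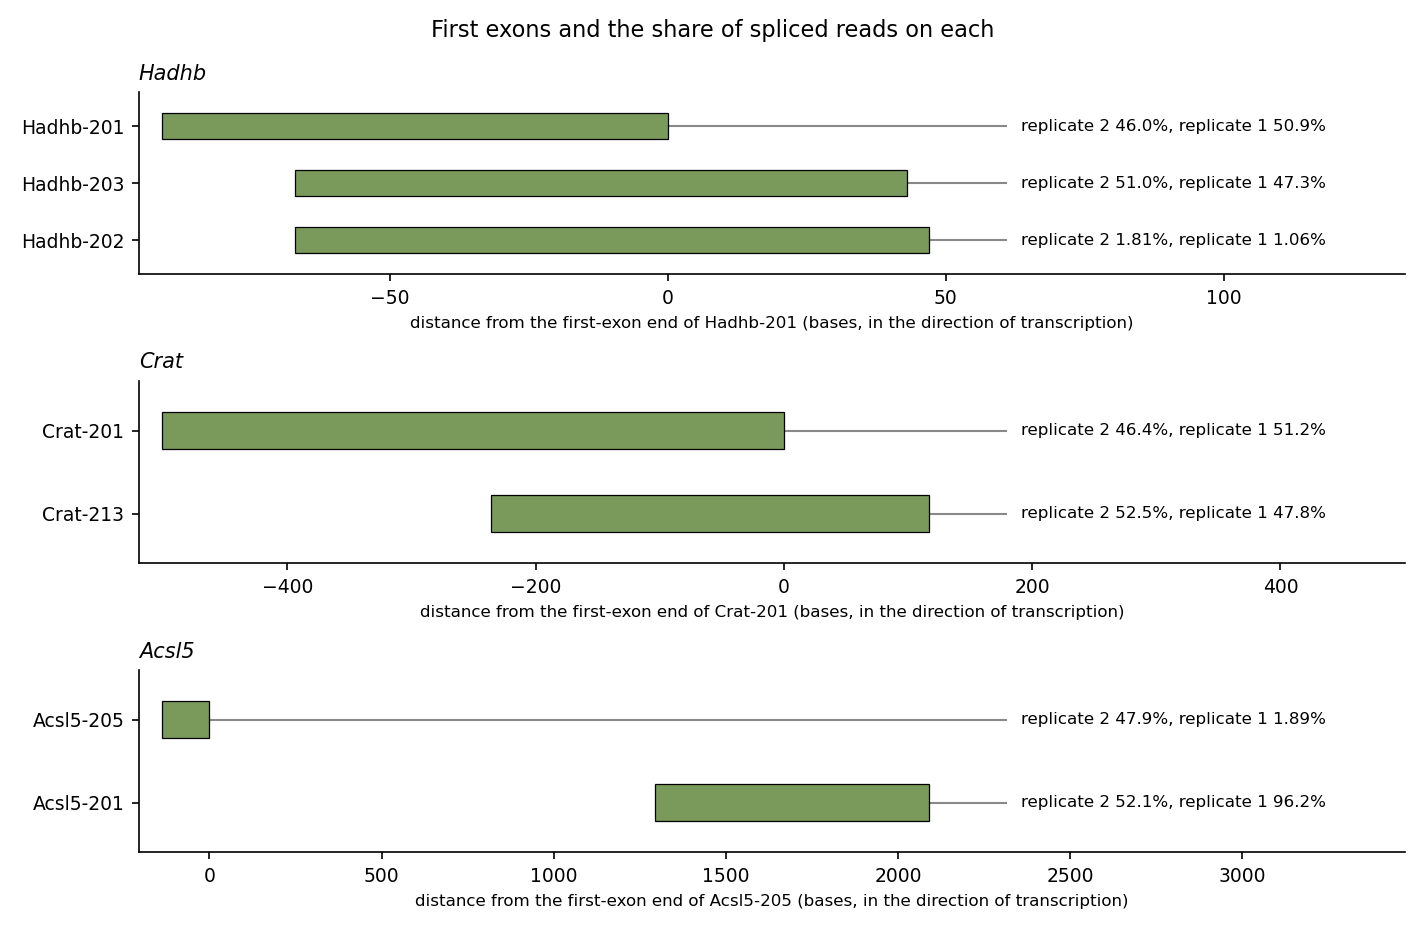
First exons of Hadhb, Crat and Acsl5 drawn to scale by distance in bases from the end of the exon in the top row of each panel, in the direction of transcription; grey lines are the start of the first intron, and the shares are of spliced reads on each exon end, replicate 2 before replicate 1. The upstream first exon of Acsl5 takes 47.9% in replicate 2 and 1.89% in replicate 1, while the shares of Hadhb and Crat lie within a few points of each other.

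Crat (chr2:30400471-30415813, minus strand) had an unannotated chain about as abundant as its annotated one. Crat-201 took 146 of 345 reads in replicate 2 (42.3%) and 128 of 297 in replicate 1 (43.1%). A chain with the same number of exons whose first exon runs 117 bases further took 147 reads (42.6%) in replicate 2 and 114 reads (38.4%) in replicate 1. This longer first exon ends where those of the short transcripts Crat-213, Crat-205 and Crat-206 do. The annotation assigns Crat-213 to nonsense-mediated decay. Crat-205 and Crat-206 are annotated as protein-coding, with start codons that lie within the first intron of this chain. The start codon annotated for Crat-202, which has 605 codons, lies in the second exon, which the chain keeps. Which start codon is used was not tested. Over all chains the extended exon held 52.5% of reads in replicate 2 and 47.8% in replicate 1, and the leading share was not called by Fisher's exact test (adjusted p = 1). Reads ending the first exon at the Crat-201 donor stood at 169 CPM in replicate 2 and 143 CPM in replicate 1, and those with the longer exon at 191 CPM and 133 CPM. From the annotated start codon, Crat-201 leaves the exon after 27 bases, whereas the longer exon reads through 36 codons to an in-frame stop. The stretch is shown from GENCODE M21 with 3 groups of capitals, the start codon, the first 2 intron bases of Crat-201 and the stop codon.
Crat first exon, chr2:30415228-30415338, minus strand: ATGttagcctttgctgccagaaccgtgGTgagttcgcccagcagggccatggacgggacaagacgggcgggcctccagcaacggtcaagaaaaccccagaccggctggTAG

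Eci2 and Acsl4 each used more than 1 transcript, with shares whose exact intervals overlapped between the libraries. Eci2-211 took 38.1% in replicate 2 and 40.5% in replicate 1, Eci2-201 took 18.8% and 20.0%, and an unannotated chain took 14.7% and 13.2%. Eci2-211 and Eci2-201 have different first exons, whose ends lie 184 bases apart, and annotated coding sequences of 391 and 358 codons. Their annotated start codons differ. Acsl4-203 took 69.9% in replicate 2 and 68.5% in replicate 1, and Acsl4-202 took 18.3% and 20.8%. The Acsl4 pair differs by 3 bases at the start of the exon that holds the start codon, and both encode 670 codons.

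Acsl1 (chr8:46471037-46536051, plus strand) used mostly its upstream start. The first exon of Acsl1-201 held 399 of 430 reads in replicate 2 (92.8%) and 174 of 194 in replicate 1 (89.7%), and that of Acsl1-203, which ends 19931 bases downstream, held 23 reads (5.35%) and 20 reads (10.3%). In CPM the upstream start had 422 in replicate 2, against 163 in replicate 1, a ratio of 2.58 (exact 95% interval 2.16 to 3.10). The downstream start had 24.3 and 18.8 CPM, a ratio of 1.29 (0.680 to 2.49). The intervals of the 2 ratios overlap, and the leading share of Acsl1 was not called. Both forms carry the same annotated coding sequence of 699 codons. Their RefSeq promoter windows are shown because the data tell the starts apart, with GGGCGG and CCAAT on either strand in capitals.
Acsl1 upstream window, chr8:46470787-46471086: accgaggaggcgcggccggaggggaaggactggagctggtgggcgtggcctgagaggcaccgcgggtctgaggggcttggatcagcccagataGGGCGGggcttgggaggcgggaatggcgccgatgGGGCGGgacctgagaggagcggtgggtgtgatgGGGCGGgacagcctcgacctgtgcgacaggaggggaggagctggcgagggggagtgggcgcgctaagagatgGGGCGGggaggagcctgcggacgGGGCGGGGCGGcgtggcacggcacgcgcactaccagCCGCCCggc
Acsl1 downstream window, chr8:46490716-46491015: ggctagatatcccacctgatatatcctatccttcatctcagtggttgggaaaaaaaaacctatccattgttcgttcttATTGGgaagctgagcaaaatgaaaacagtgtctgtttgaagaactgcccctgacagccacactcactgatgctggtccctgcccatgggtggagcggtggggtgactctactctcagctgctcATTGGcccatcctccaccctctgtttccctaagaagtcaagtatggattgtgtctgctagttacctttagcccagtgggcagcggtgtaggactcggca
The upstream window holds GGGCGG 7 times, with overlapping copies counted, and the downstream window holds none of it and CCAAT 2 times.

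RefSeq promoter windows of 300 bases were found for 27 of the 34 members, 28 windows with both of Acsl1. GGGCGG, the core of the GC box, was present on either strand in 78.6% of these windows, against 35.7% of the 32841 windows of all genes, whether transcribed here or not. CCAAT was present in 14 of the 28 members' windows and in 37.4% of all windows. AGGTCA, the half-site of many nuclear receptors, was present in 14.3% of the members' windows, those of Acadm, Acadvl, Cpt1a and Echs1, and in 16.3% of all windows. A pair of AGGTCA separated by 1 base, the type of site that PPAR and RXR receptors bind, was in 0 of the members' windows and 0.0396% of all windows. The median GC content was 60.7% in the members' windows and 52.7% in all windows. The letters were matched exactly, and no measurement of binding was made.

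Most reads of the group were complete by annotation. Models that match an annotated transcript took 85.2% of member reads in replicate 2 and 83.2% in replicate 1, against 78.2% and 76.1% over all genes. Incomplete matches took 9.71% of member reads in replicate 2, against 11.8% in replicate 1, and were most frequent in Acot13 (32.9% and 37.0%) and Acadl (27.5% in replicate 2). Reads that overlap a gene without its splicing made up 0.542% and 0.600% of member reads, against 4.12% and 5.36% over all genes.

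Wider lists of lipid genes, none of which includes a member, were counted in the same test, in which 8.58% of all genes were higher in replicate 2 and 17.9% lower. Of 20 genes tested from the list for peroxisomal beta-oxidation and alpha-oxidation, 13 were higher in replicate 2 and 0 lower, with a median log2 ratio of 0.96. The list is not purely peroxisomal, since it includes the mitochondrial Hsd17b10, which was not called at a log2 ratio of 0.12. Scp2, the sterol carrier and thiolase, had 1313 reads in replicate 2, against 521 in replicate 1 (log2 ratio 1.5), while Phyh, the first enzyme of alpha-oxidation, was not called at 0.26. Of 5 genes for carnitine supply and the shuttle, 2 were higher and 0 lower, including Slc25a20, the carnitine-acylcarnitine translocase, with 133 reads in replicate 2, against 83 in replicate 1 (log2 ratio 0.85). Aldh9a1 and Tmlhe, which act in carnitine synthesis, were not called, with log2 ratios of −0.12 and 0.42. Of 15 genes for uptake, binding and activation, 6 were higher and 2 lower. Among them the liver fatty acid binding protein Fabp1 had 1012 reads in replicate 2 and 8 in replicate 1, while Fabp4 of adipocytes and the acyl-CoA binding protein Dbi had log2 ratios of −0.01 and 0.12.

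Of 11 genes for lipolysis and lipid droplets, 3 were higher in replicate 2 and 0 lower. The droplet protein Cidea was higher, with a log2 ratio of 0.34, and the triglyceride lipase Pnpla2 and the droplet coat protein Plin2 were not called at 0.14 each. Of 15 genes that control oxidation, 3 were higher and 1 lower. Mlycd, which removes malonyl-CoA, and the nuclear receptor Esrra were not called, with log2 ratios of 0.20 and −0.03. The 3 higher genes were Sirt3, Pparg and Ppara, with log2 ratios of 0.83, 0.84 and 2.44. Rxrb, a partner of PPAR, was lower with a log2 ratio of −0.51 (adjusted p = 0.0490, exact test). Its adjusted p lies near the threshold and the other scalings raise every log2 ratio, so this call is given for scaling by total reads only. Of 17 genes for the use of acetyl-CoA, ketone bodies and propionyl-CoA, 5 were higher and 0 lower, with the mitochondrial thiolase Acat1 at 795 reads in replicate 2, against 457 in replicate 1 (log2 ratio 0.97). Ivd, the isovaleryl-CoA dehydrogenase, and Pccb, a subunit of propionyl-CoA carboxylase, were not called at −0.23 and −0.01. Of 6 other thioesterases, 2 were higher and 0 lower, and Ppt1, Acot9 and Acot7, the highest of them, were not called, with log2 ratios of −0.44, −0.57 and −0.23. The part of the hepatocyte and muscle genes, higher in replicate 2, was not tested for these lists either.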

How the data were processed

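Long-read RNA-seq was made from adrenal gland of 14-day-old female B6CASTF1/J mice, 2 libraries of 1 group. Per the file headers, the authors deposited whole-number read counts per transcript model, unscaled and not pooled, with a matching annotation on mm10 and GENCODE M21 and TALON classes. The aligner was not given in the sources used here, and neither were the TALON version or read filters. Counts of all models of a gene were summed, giving 946553 gene reads in replicate 2 and 1065570 in replicate 1 without spike-ins. ERCC reads (16032 and 27102) served as an alternative scale. The members, wider lists, marker lists and tests were chosen with earlier results of these data known. All 34 members are named. Of each wider list the 3 genes of highest mean CPM are named. Others were named for their link to a member, after their values were seen.

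The libraries were compared gene by gene, for all genes of 20 or more summed reads, by a two-sided exact conditional binomial test on the counts given both library totals. P-values were adjusted over all genes by Benjamini-Hochberg, at a threshold of 0.05. Log2 ratios of CPM (replicate 2 over replicate 1) were taken after adding 0.5 reads to each count, and the SE reflects counting alone. With 1 library per tissue sample no model with a replicate dispersion could be fitted, so edgeR 4.0.16 was run only with an assumed coefficient of variation of 0.2. Spliced reads of the Known, NIC and NNC classes were grouped by intron chain and by donor of the first intron. The leading share was compared by Fisher's exact test in genes with at least 20 such reads in each library and 2 or more chains. For the donor comparison, 2 or more donors were required. NIC chains combine known splice sites in a way not annotated, and NNC chains use a site not annotated. Shares carry exact Clopper-Pearson 95% intervals. Reads carry no molecular identifiers, so intervals, limits and tests cover counting error only, between the 2 libraries and not the animals. Alternatives were TMM, DESeq2 1.42.0 size factors and ERCC scaling, a minimum of 10 or 50 reads, and other model classes. The tests were checked on simulated counts that hold counting error only, without any spread between animals or preparations. SciPy 1.17.1, pandas 2.3.3 and R 4.3.3 were used.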

Additional observations from a re-analysis of the deposited data

Results flagged for a closer look

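Reads of unannotated loci on the strand opposite to a member were found over 26 of the 34 members, 116 reads in replicate 2 and 165 in replicate 1, of which 4 and 3 were spliced. They are outside the gene reads used above. Over 6 members they exceeded the limit of 3 reads in both libraries. Over Acsl4 there were 17 in replicate 2 and 46 in replicate 1, over Hadhb 15 and 23, and over Eci1 19 and 24. Over Acot2 there were 15 in replicate 2 and 20 in replicate 1, over Acadl 11 and 4, and over Cpt1a 5 and 6. Nearly all are single-exon reads, whose strand is less certain than that of spliced reads, and their source was not tested. For Acot2 they outnumber the gene's own reads, 13 in replicate 2 and 17 in replicate 1. Unannotated reads on the same strand as a member came to 9 and 6.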

How the results depend on the processing

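The 2 libraries gave a share of gene reads on the members of 1.61% without replicate 2 and 2.08% without replicate 1. Scaling moved the median log2 ratio of the members from 0.29 to 0.54 under TMM, 0.53 under DESeq2 size factors and 0.88 under ERCC spike-ins. The median of all genes moved alike, from −0.28 to −0.03, −0.04 and 0.31. A scaling adds the same amount to every log2 ratio, so the gap of 0.57 between members and all genes could not change. Members called higher came to 24, 24 and 29 under these scalings, with 0 lower, and the same 19 stayed higher under each. All of these scalings raise every log2 ratio, so the 19 kept and the 0 lower were close to given in advance. Over all genes the higher calls made up 32.4% of calls with total scaling, 63.0% under TMM, 62.1% under DESeq2 factors and 92.4% under ERCC. A minimum of 50 reads, with fewer genes tested, gave 1 member lower, Acsl4. With known models only, 17 members were higher, Acsl5 turned to a log2 ratio of −0.0155, Crat was no longer called at 0.32, and the number of members whose leading share differed fell to 0, since the unannotated chain of Acsl5 is left out. With a coefficient of variation of 0.2 the number higher fell to 0. The Hadhb first-exon difference was 3.91 points with known transcripts and 3.60 with incomplete matches, not called in either. No paired analysis was possible because there is 1 group. Depth limits Acsl3, Acot1 and Acot2, with under 20 reads in each library.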

Other observations

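Several genes of the wider lists were more frequent in replicate 2, and which cells they came from was not tested. Bdh1, which interconverts ketone bodies, had 43 reads in replicate 2 and 4 in replicate 1, and the bile acid and fatty acid synthetase Slc27a5 had 202 and 2. Acox2, the oxidase for branched side chains, had 150 reads in replicate 2 and 2 in replicate 1, and Crot, the peroxisomal carnitine octanoyltransferase, had 287 and 69. The receptor Ppara had 26 and 5. These genes were chosen for mention after their values were seen. Slc27a1, a fatty acid transporter of muscle and fat, had 130 reads in replicate 2 and 245 in replicate 1.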
